A study of Mus musculus with 12 samples.

Results

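Colony-stimulating factors, Il34 and their receptors include the signals on which microglia, the resident macrophages of the brain, depend for survival and renewal. The 7 members described here are the ligands Csf1 and Il34 and the receptor genes Csf1r, Csf2ra, Csf2rb, Csf2rb2 and Csf3r. They were listed by name and taken from a count table of 55573 genes, in which each symbol matched a single Ensembl identifier. The libraries were made from RNA of single right hippocampi, taken whole at 4.5 months of age from APP/PS1 and WT mice of the C57BL/6J strain. APP/PS1 mice carry the Swedish mutation in a chimeric mouse and human amyloid precursor protein (APPSwe) and a human presenilin 1 that lacks an exon (Ps1dE9), both under a prion promoter, and WT mice carry neither. Each sex was represented by 4 APP/PS1 and 2 WT mice, and each mouse gave 1 library. The comparison asks whether these ligands and receptors differ between the genotypes, and whether they do so in both sexes.

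Csf1 and Il34 are secreted proteins that bind the same receptor tyrosine kinase, Csf1r. In the adult brain Il34 is made mainly by neurons and Csf1 mainly by glia, and blocking Csf1r removes most microglia. The other receptors belong to the cytokine receptor family and signal through Jak kinases and Stat factors. Csf2ra binds granulocyte-macrophage colony-stimulating factor, Csf2rb is the chain that this receptor shares with the receptors of Il3 and Il5, and Csf2rb2 is a second beta chain of mice used by Il3. Csf3r is the receptor of granulocyte colony-stimulating factor and is best known on neutrophils and their precursors, although its transcript is also found in microglia.

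Total counts per library ranged from 36714316 to 43993432 in APP/PS1 females and from 38740224 to 44301634 in APP/PS1 males. They were 37750056 and 45266162 in WT females, and 38332826 and 50643565 in WT males. The sex labels matched the libraries, since Xist had at least 23268 counts in every female and at most 9 in any male, and Ddx3y at least 3073 counts in every male and at most 2 in any female. Reads on App did not separate the genotypes, with 1615 ± 36.9 normalized CPM in APP/PS1 (SD, n = 8) and 1627 ± 94.4 in WT (SD, n = 4), so this gene does not check the genotype labels. Thy1 did separate them, at 2187 to 3305 CPM in the APP/PS1 libraries and 724.3 to 749.8 in the WT libraries. CPM are counts scaled to a common library total, and in normalized CPM that total is first adjusted by the library's upper quartile. The neuronal markers that define the tissue were high throughout, led by Camk2a at 3299 ± 157 CPM in APP/PS1 and 3483 ± 309.2 in WT. In 3 libraries the choroid plexus gene Ttr stood apart, at 3586 CPM of the unscaled total in APP/PS1 female 1, 3672 in WT female 2 and 6248 in APP/PS1 male 2, against 2.66 to 18.5 in the others.

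All 7 members passed the filter of at least 1 CPM in at least 3 libraries, with 15521 genes in all. Per kilobase of exon, the highest level in WT hippocampus was that of Il34 at 21.5 ± 3.19 CPM per kilobase (SD, n = 4). Csf1r followed at 14.6 ± 1.92 CPM per kilobase, and the range of its WT libraries, 12.8 to 16.4, did not reach that of Il34, 18.7 to 25.8. Csf2ra and Csf1 came next at 4.40 ± 0.729 and 4.31 ± 0.49 CPM per kilobase and did not differ beyond their spread. Csf3r stood at 1.72 ± 0.458 CPM per kilobase. The beta chains were lowest, Csf2rb2 at 0.325 ± 0.106 and Csf2rb at 0.228 ± 0.0762 CPM per kilobase, with overlapping ranges. Lengths count every annotated exon, 7277 bases for Csf2rb against 4900 in its longest protein-coding transcript. For Csf2rb2 both lengths were 4740 bases, so the order of the beta chains depends on the length used. The order in APP/PS1 differed at the top, where Il34 at 21.7 ± 1.97 and Csf1r at 21.4 ± 3.07 CPM per kilobase (SD, n = 8) could not be ranked. There Csf1 at 5.01 ± 0.562 and Csf2ra at 4.97 ± 1.25 CPM per kilobase did not differ beyond their spread. Csf3r at 3.92 ± 0.859 CPM per kilobase was lower than Csf1 by more than either SD, with overlapping ranges, and within the spread of Csf2ra.

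**Figure D1:**
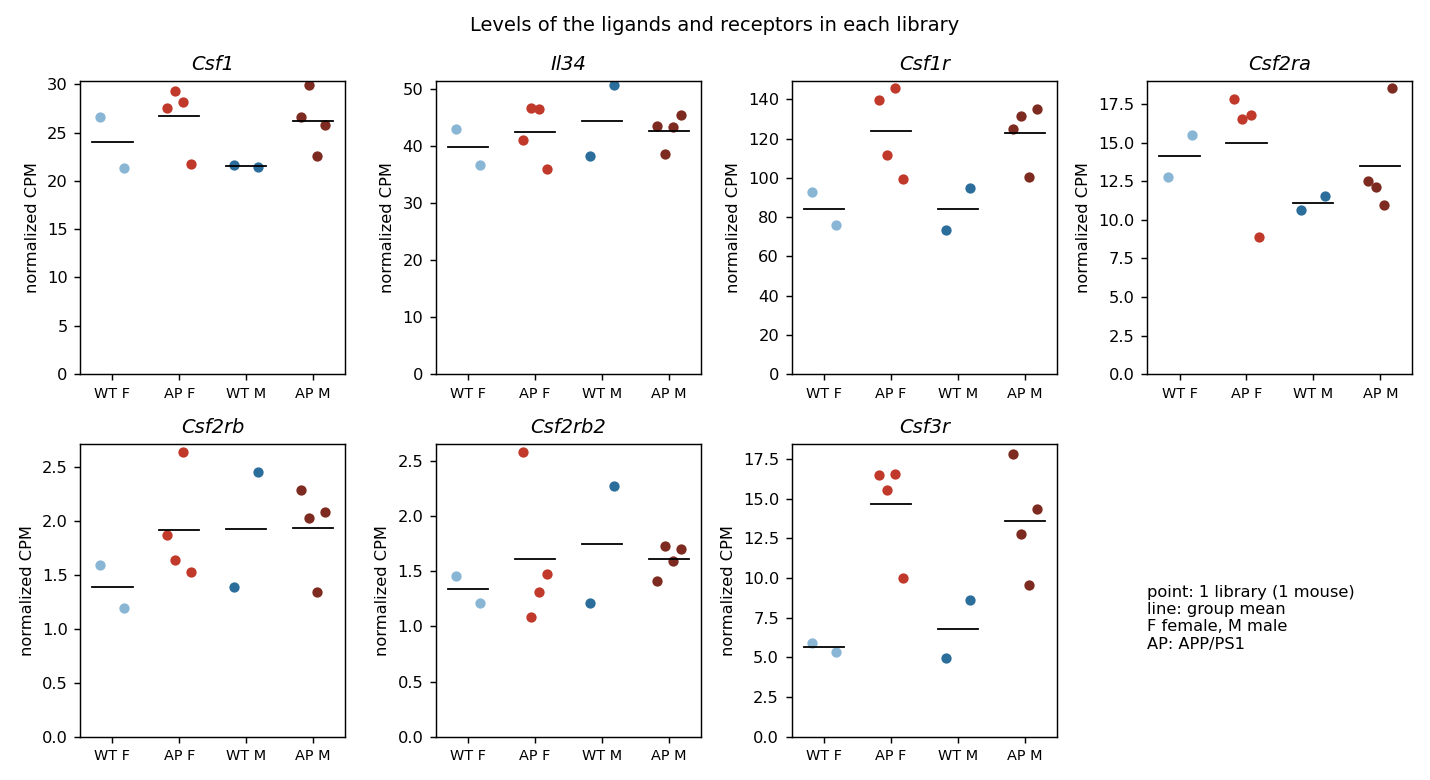
Normalized CPM of each member (vertical axes, starting at 0) in the 12 libraries, grouped by genotype and sex along the horizontal axes; each point is 1 mouse and each line a group mean. Csf1r and Csf3r are the panels in which all 8 APP/PS1 points lie above all 4 WT points.

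Of the 7 members, 2 rose in APP/PS1 hippocampus when both sexes were averaged, the receptors Csf1r and Csf3r, and none fell, at a false discovery rate (FDR) under 0.1 in edgeR's quasi-likelihood test with Benjamini-Hochberg adjustment over all genes tested. Among all genes tested 1.91% were called in this comparison, 297 genes, and 1.75% were called as higher. All 7 members had a log2 fold change above 0 under upper-quartile, TMM and DESeq2 scaling, as did 54.8% of all genes tested under the first of these. The median log2 fold change was 0.25 over the members and 0.01 over all genes. In whole tissue, more microglia and more RNA per microglial cell cannot be told apart. An unadjusted p under 0.05 was reached by 4 members, which besides the receptors that rose were Csf1 and Csf2ra, and by 1502 of all 15521 genes tested.

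The ligands gave smaller differences. Csf1 (ENSMUSG00000014599), on chromosome 3 (GRCm38, 107741048 to 107760469, minus strand), was at 27.5, 29.3, 28.2 and 21.8 CPM in APP/PS1 females against 26.6 and 21.4 in WT females. In males it was at 26.6, 29.9, 22.5 and 25.8 CPM in APP/PS1 against 21.7 and 21.4 in WT. The male groups did not overlap, as was the case with APP/PS1 higher for 6.71% of all genes, whereas 1 of the APP/PS1 females lay below the higher WT female. The fitted log2 fold change of Csf1 was 0.23 ± 0.09 (SE) with both sexes averaged, and it did not pass the threshold (edgeR, adjusted p = 0.437). The value was 0.11 without WT female 2, 0.36 without WT female 1 and 0.11 without the 3 libraries high in Ttr. The 95% interval, from 0.02 to 0.43, leaves room for differences of up to 1.35-fold.

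Il34 (ENSMUSG00000031750), on chromosome 8 (110741829 to 110805924, minus strand), was the ligand with the higher level per length and ranged from 35.9 to 46.5 CPM in APP/PS1, with a median of 43.4, against 36.6, 38.2, 42.9 and 50.59 CPM in the WT libraries. The genotypes overlapped throughout, and the highest value belonged to a WT male. Its log2 fold change was 0.06 ± 0.06 (SE) and did not pass the threshold (edgeR, adjusted p = 0.822), with a 95% interval from -0.08 to 0.20. A pair of annotated antisense genes share 22 and 75 exon bases with Il34 and had 144 and 35 counts over all libraries, and the strand option of the counting is not given in the sources used here, so reads in these bases are uncertain.

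The ratio of the ligands was therefore examined in each library. The log2 ratio of Csf1 to Il34 normalized CPM ranged from -0.94 to -0.36 in APP/PS1, with a median of -0.71, and from -1.24 to -0.68 in WT. The difference of the means was 0.19, APP/PS1 higher, which was within what an exact permutation test over all assignments of the genotype labels gives (two-sided p = 0.16, smallest possible p 0.00202). The lowest WT value was that of WT male 2, the library with the most Il34, without which the difference was 0.07 (exact p = 0.509).

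The receptor of both ligands, Csf1r, was higher in every APP/PS1 library than in any WT library. It (ENSMUSG00000024621) lies on chromosome 18 (61100598 to 61132149, plus strand). In females its level was 139.5, 111.8, 145.8 and 99.3 CPM in APP/PS1 against 92.8 and 75.8 in WT. In males it was 124.9, 131.5, 100.7 and 135.1 CPM in APP/PS1 against 73.7 and 94.9 in WT. APP/PS1 female 4 and APP/PS1 male 3 were the lowest of their groups and came within a few CPM of the highest WT library. The same separation, every APP/PS1 above every WT library, was seen for 213 genes or 1.37% of those tested.

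With both sexes averaged Csf1r was 1.49-fold higher in APP/PS1, a log2 fold change of 0.58 ± 0.13 (SE) with a 95% interval from 0.28 to 0.87 (edgeR, adjusted p = 0.0925), and higher in 8 of 8 APP/PS1 libraries. On simulated data more of the fit's calls were false than the threshold allows, and this call lies close to the threshold. It was lost when any 1 of 8 libraries was left out, APP/PS1 females 1 and 3, WT female 2, APP/PS1 males 1, 2 and 4 and both WT males, with log2 fold changes of 0.56, 0.53, 0.47, 0.56, 0.57, 0.58, 0.49 and 0.65 in that order and adjusted p from 0.105 to 0.226. It was also lost without the 3 libraries high in Ttr, with a log2 fold change of 0.44 (adjusted p = 0.115). The same held with no filter on low counts, at 0.55 (adjusted p = 0.341). With the replicate number as a block, a fit with fewer degrees of freedom left for the spread, the call was lost too, at 0.58 (adjusted p = 0.41). Exons of Csf1r share 873 bases with Hmgxb3 on the opposite strand, so that part of its count is uncertain. Hmgxb3 itself stood at 47.7 ± 2.29 CPM in APP/PS1 and 50.5 ± 0.782 in WT, with overlapping ranges, and its part in the count of Csf1r was not tested.

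Csf3r had the largest difference among the members. It (ENSMUSG00000028859) lies on chromosome 4 (126024550 to 126044440, plus strand). Its level in females was 16.5, 15.6, 16.6 and 9.98 CPM in APP/PS1 against 5.94 and 5.32 in WT, and in males 17.8, 12.8, 9.54 and 14.4 CPM in APP/PS1 against 4.99 and 8.63 in WT. No APP/PS1 library reached down to a WT library, though APP/PS1 male 3 came close to WT male 2. Every APP/PS1 library lay above every WT library for 1.37% of all genes tested.

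Averaged over the sexes Csf3r was 2.37-fold higher in APP/PS1, a log2 fold change of 1.25 ± 0.21 (SE) with a 95% interval from 0.78 to 1.71 (edgeR, adjusted p = 0.0242), and higher in 8 of 8 APP/PS1 libraries. Leaving out 1 library ended this call only for WT female 2, with a log2 fold change of 1.17 (adjusted p = 0.135) in a fit that takes the remaining WT female to vary like the other groups. It passed under the other alternatives tried, among them leaving out the 3 libraries high in Ttr, with a log2 fold change of 1.13 (adjusted p = 0.00144).

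Stretches from 250 bases before to 50 bases after the start of a gene were taken from RefSeq (GRCm38.p6). Those of 4 members, Csf1, Csf2ra, Csf2rb2 and Csf3r, were searched. No stretch of Csf1r, Il34 or Csf2rb was searched, so Csf1r, the other receptor that rose, has no result here. The stretch is shown for Csf3r, which rose, and for Csf2ra, whose difference did not pass the threshold, because Spi1 rose in the same comparison. Capitals mark the core of the PU box, GAGGAA, the purine-rich element named for the factor PU.1 that Spi1 encodes, searched on both strands.
Csf3r, chr4:126024409-126024708, plus strand: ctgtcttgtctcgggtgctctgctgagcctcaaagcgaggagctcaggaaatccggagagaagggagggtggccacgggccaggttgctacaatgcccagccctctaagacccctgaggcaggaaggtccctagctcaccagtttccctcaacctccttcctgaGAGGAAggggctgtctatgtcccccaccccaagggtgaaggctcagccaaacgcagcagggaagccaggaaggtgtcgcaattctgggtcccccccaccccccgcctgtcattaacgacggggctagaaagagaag
Csf2ra, chr19:61228369-61228668, minus strand: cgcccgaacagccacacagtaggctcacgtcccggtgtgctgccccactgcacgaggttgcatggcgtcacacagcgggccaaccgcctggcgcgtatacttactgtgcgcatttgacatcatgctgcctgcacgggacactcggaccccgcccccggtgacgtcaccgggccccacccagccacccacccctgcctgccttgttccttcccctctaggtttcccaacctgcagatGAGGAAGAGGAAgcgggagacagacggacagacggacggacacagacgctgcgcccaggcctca
The RefSeq starts of both genes differ from the GENCODE starts given here with their positions, and by GENCODE the match of Csf3r and the second match of Csf2ra lie inside the gene, while the first match of Csf2ra spans its start. The window of Csf3r holds 1 match and that of Csf2ra 2 adjoining matches. The window of Csf2rb2 holds 2 matches on its other strand, and that of Csf1 none. Of the 32851 windows in the table, 28.3% hold at least 1 match and 4.82% at least 2.

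The remaining receptors did not pass the threshold. Csf2ra (ENSMUSG00000059326), on chromosome 19 (61223957 to 61228429, minus strand), ranged from 8.87 to 18.5 CPM in APP/PS1, with a median of 14.5, and from 10.7 to 15.5 CPM in WT. APP/PS1 female 4 was lower than all WT libraries, and 4 of the 8 APP/PS1 libraries were higher than all of them. Its log2 fold change was 0.25 ± 0.09 (SE; edgeR, adjusted p = 0.338), with a 95% interval from 0.06 to 0.45.

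Csf2rb (ENSMUSG00000071713) and Csf2rb2 (ENSMUSG00000071714) are neighbouring paralogs on chromosome 15 (78325752 to 78353847, plus strand, and 78282507 to 78305721, minus strand) and were near the lower limit of the measurement, with 53 to 124 and 41 to 115 counts per library. Reads from stretches that the paralogs share could be assigned to either or dropped, so both counts are uncertain. Of the windows of 150 bases, the read length, in the longest protein-coding transcript of Csf2rb, 3.47% were identical to a stretch of a Csf2rb2 transcript, and of those in Csf2rb2 3.59% were identical to a stretch of Csf2rb.

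Csf2rb ranged from 1.34 to 2.64 CPM in APP/PS1 and from 1.195 to 2.45 CPM in WT, and Csf2rb2 from 1.08 to 2.58 and from 1.21 to 2.28. The ranges of the genotypes overlapped almost fully for both. The log2 fold changes were 0.27 ± 0.23 (SE) for Csf2rb and 0.07 ± 0.23 for Csf2rb2 (edgeR, adjusted p = 0.762 and 0.955). Their 95% intervals ran from -0.21 to 0.76 and from -0.43 to 0.58. That of Csf2rb holds a difference of the size seen for Csf1r. With 1 library left out the log2 fold change of Csf2rb ran from 0.08 to 0.48.

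**Figure D2:**
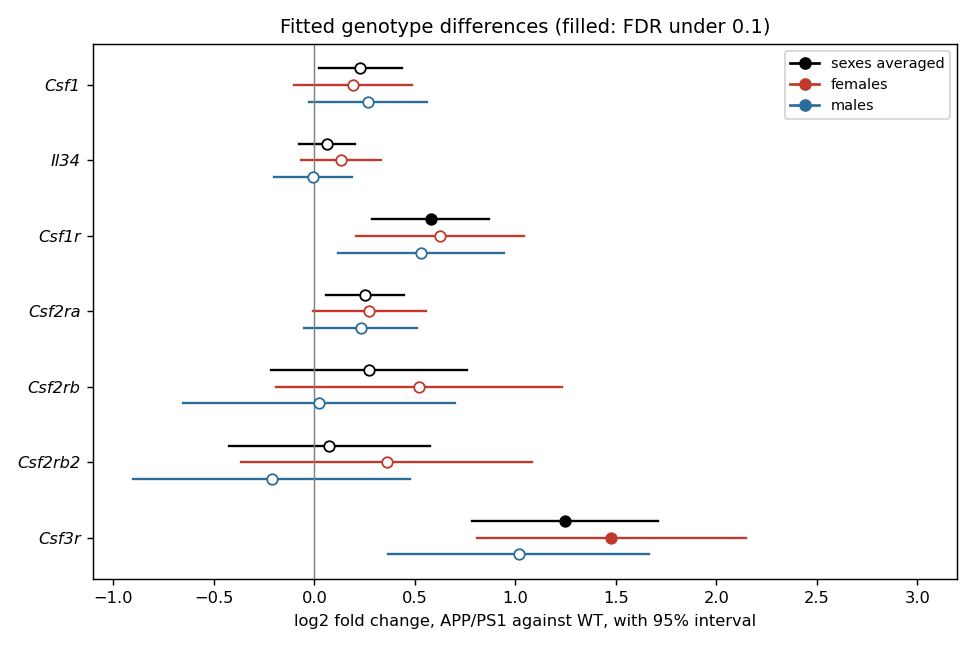
Fitted log2 fold changes of APP/PS1 against WT (horizontal axis) for each member (vertical axis), with both sexes averaged and within each sex; bars are 95% intervals and filled points passed an FDR under 0.1. The filled points are Csf1r and Csf3r with the sexes averaged and Csf3r in females, and the intervals of the sexes overlap for every member.

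Within each sex the comparison rests on 2 WT mice. In females Csf3r passed the threshold, with a log2 fold change of 1.48 ± 0.30 (SE; edgeR, adjusted p = 0.0975), the only member to do so where 0.799% of all genes were called. All 4 APP/PS1 females were above both WT females for Csf3r and Csf1r, a pattern shown by 12.7% of all genes. The female call was lost when any 1 of 6 libraries was left out, with adjusted p from 0.17 to 0.426 without APP/PS1 females 1, 2 and 3, WT females 1 and 2 and APP/PS1 male 2, and log2 fold changes of 1.44, 1.496, 1.41, 1.64, 1.36 and 1.49 in that order. It was lost too with a single RUV factor (1.39, adjusted p = 0.103) and with no filter on low counts (1.47, adjusted p = 0.237). The replicate number as a block ended it as well (1.64, adjusted p = 0.179).

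Csf1r in females had a log2 fold change of 0.62 ± 0.18 (SE) and did not pass the threshold (edgeR, adjusted p = 0.299), although edgeR's likelihood ratio test gave an adjusted p of 0.0513. The other members in females had log2 fold changes of 0.19 for Csf1, 0.13 for Il34, 0.27 for Csf2ra, 0.52 for Csf2rb and 0.36 for Csf2rb2.

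In males no member passed the threshold of edgeR's quasi-likelihood test, in a comparison that called 0.161% of all genes. The count at an unadjusted p under 0.05 was 2 members and 852 of all genes. Csf3r was the 1 member to pass with edgeR's likelihood ratio test and with DESeq2, which called 135 and 130 genes. The male log2 fold change was 1.02 ± 0.29 (SE; edgeR, adjusted p = 0.481) for Csf3r and 0.53 ± 0.18 (adjusted p = 0.728) for Csf1r. Without the 3 libraries high in Ttr, Csf3r in males passed the threshold (0.995, adjusted p = 0.0248). The log2 fold changes of the other members in males were 0.27 for Csf1, -0.0068 for Il34, 0.23 for Csf2ra, 0.02 for Csf2rb and -0.21 for Csf2rb2.

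The difference between the sexes was tested as an interaction of genotype and sex. It was 0.46 ± 0.40 (SE, log2, female minus male) for Csf3r and 0.09 ± 0.25 for Csf1r (edgeR, adjusted p = 0.998 for both). For Csf3r it was 0.04 without WT male 2 and 0.76 without WT male 1. Neither this test nor any alternative called a member. Over all genes 0% were called, 589 genes had an unadjusted p under 0.05, and edgeR's likelihood ratio test called 1 gene and DESeq2 2. The 95% interval of the Csf3r interaction, from -0.45 to 1.37, is wide, so a sex difference of the size of the genotype difference itself was not resolved with these numbers of mice.

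Csf1r and Csf3r were next set beside other genes of microglia. The 16 microglial markers, which include Cx3cr1 and P2ry12, were all measured and all had a log2 fold change above 0. Their median was 0.82 against 0.01 over all genes. Of these markers 10 were called higher and none lower, where 1.75% of all genes were called higher. The count fell to 6 without APP/PS1 female 1, APP/PS1 female 2 or WT male 1, to 4 without WT female 1 or APP/PS1 male 2, to 2 without WT male 2, to 1 without WT female 2, to 5 without the 3 libraries high in Ttr and to 2 with no filter on low counts. The markers with the smallest p were the lysosomal membrane gene Laptm5, the selectin ligand Selplg, the lectin Siglech and the receptor Gpr34, with log2 fold changes of 0.99 ± 0.16, 0.56 ± 0.11, 0.80 ± 0.14 and 1.05 ± 0.18 (SE; edgeR, adjusted p = 0.0253, 0.0289, 0.0289 and 0.0336). Without WT female 2 the calls of Laptm5 (0.90), Selplg (0.53) and Gpr34 (0.92) were lost, without WT male 2 those of Siglech (0.76) and Selplg (0.58), and that of Selplg also without WT female 1 (0.59) or WT male 1 (0.53). With no filter those of Laptm5 (0.99, adjusted p = 0.131), Siglech (0.78, adjusted p = 0.121) and Gpr34 (1.06, adjusted p = 0.297) were lost, and that of Gpr34 also without the libraries high in Ttr (0.92, adjusted p = 0.365). With the replicate number as a block the count was 6, and Laptm5 (1.01, adjusted p = 0.213) and Selplg (0.60, adjusted p = 0.177) were not called. The summed level of the 16 markers was 874, 701.6, 1065 and 757.1 CPM in APP/PS1 females, 459.5 and 412.8 in WT females, 986.4, 914.4, 641.8 and 698.1 in APP/PS1 males and 457.6 and 548.7 in WT males. The marker sum separated the genotypes as Csf1r did.

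Relative to these markers Csf1r was not higher in APP/PS1. The log2 level of Csf1r minus the mean log2 level of the 16 markers ranged from 1.56 to 2.16 in APP/PS1, with a median of 1.76, and was 2.17, 2.02, 1.76 and 2.05 in the WT libraries. The mean was lower in APP/PS1 by a log2 difference of -0.21, and an exact permutation test over all assignments did not pass 0.05 (two-sided p = 0.0909). With APP/PS1 male 4 left out the difference was -0.26 (exact p = 0.0182) and with WT male 1 left out -0.29 (exact p = 0.0303), so these single libraries decide on which side of 0.05 it falls.

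Set against the plaque-associated microglial genes instead, Csf1r was lower in every APP/PS1 library than in any WT library. This list holds 20 genes that microglia near plaques are known to raise, chosen for that reason, so its direction is not independent evidence. The relative level of Csf1r ranged from 2.54 to 3.38 in APP/PS1 and from 3.52 to 4.11 in WT, a difference of -1.02, given as a description with no test. The reference was the mean of the 19 genes of this list that passed the filter, some of them only through APP/PS1. The genes with the largest fold changes among them were near 0 in WT.

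Csf3r relative to the 16 microglial markers was computed after the values above had been seen and is given without a test. It ranged from -1.66 to -0.99 in APP/PS1, with a median of -1.34, and was -1.78, -1.79, -2.09 and -1.39 in WT females 1 and 2 and WT males 1 and 2. The means differed by 0.41 on the log2 scale, APP/PS1 higher, and WT male 2 lay inside the APP/PS1 range.

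**Figure D3:**
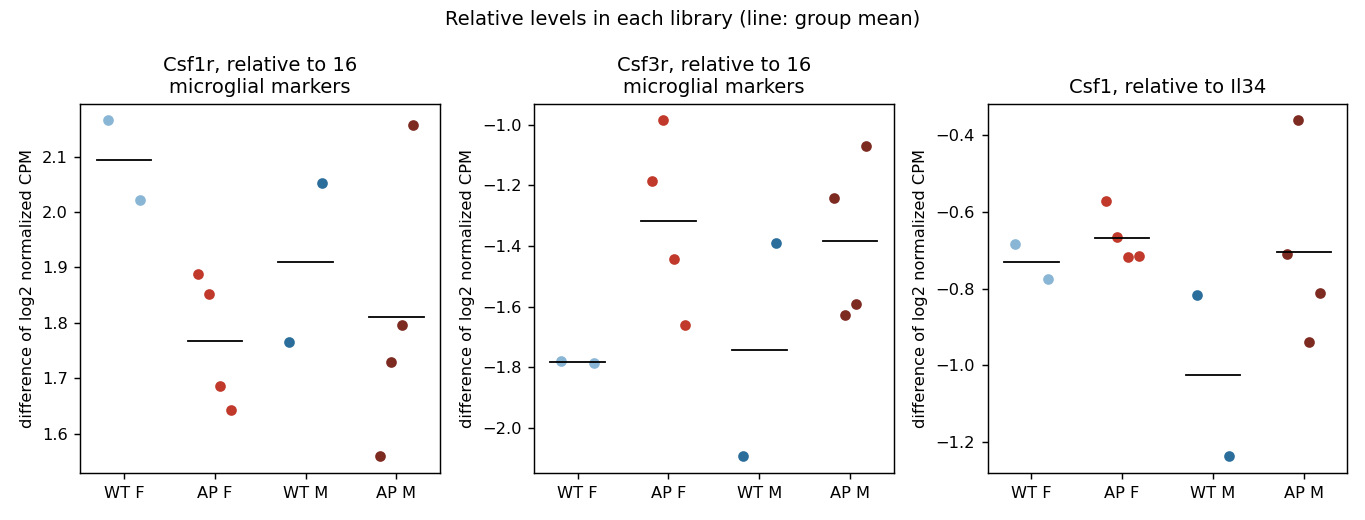
Relative levels in each library, as differences of log2 normalized CPM (vertical axes), for Csf1r and Csf3r against the mean of 16 microglial markers and for Csf1 against Il34, by genotype and sex (horizontal axes); lines are group means. APP/PS1 and WT points overlap in all 3 panels.

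Of the 20 plaque-associated genes 19 passed the filter, some of them only through the APP/PS1 libraries, where they are high, so no count of calls and no median is given. The integrin subunit Itgax, the protease inhibitor Cst7 and the chemokines Ccl6 and Ccl3 had the smallest p, with log2 fold changes of 4.05 ± 0.26, 7.04 ± 0.36, 2.94 ± 0.20 and 4.22 ± 0.40 (SE; edgeR, adjusted p = 3.86e-06, 3.86e-06, 1.05e-05 and 0.000128). Itgax, Cst7 and Ccl3 passed the filter only through APP/PS1 and so had to differ. With no filter on low counts they were called too, with log2 fold changes of 4.01, 7.05 and 4.17 (edgeR, adjusted p under 0.001 for each). In WT libraries Cst7 and Ccl3 were at means of 0.0746 and 0.0901 CPM, near the level of 3 counts, so their fold changes are imprecise.

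Ligands of the other receptors were at or near 0. Csf2, the ligand of Csf2ra with Csf2rb, had 1 count in all libraries together, Csf3, the ligand of Csf3r, had 2, Il3 had none and Il5 had 18. A level of 3 counts, the limit that a count of 0 allows, corresponds to between 0.0592 and 0.0817 CPM at these depths, by counting error alone. The reads of Csf3 were 1 in APP/PS1 male 4 and 1 in WT male 2, so no difference between the genotypes was detectable at this depth. Of the other receptors, Il3ra had a log2 fold change of 0.46 ± 0.19 (SE) and did not pass the threshold (edgeR, adjusted p = 0.441). Its value ran from 0.29 to 0.64 with 1 library left out. Ptprz1, a receptor phosphatase described to bind Il34, was abundant at 253 ± 6.55 CPM in APP/PS1 and 246.3 ± 21.9 in WT, with a log2 fold change of 0.03 ± 0.05 (adjusted p = 0.899). Sdc1, a proteoglycan described to bind Il34, and Il5ra did not pass the filter, with 485 and 7 counts over all libraries.

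Of 32 genes that act just downstream of these receptors, 29 were tested, with a median log2 fold change of 0.01, as over all genes. Of the 29, 2 were called higher and none lower, where 1.75% of all genes were called higher. Those called were Tyrobp, an adaptor through which Csf1r and Trem2 signal, and Pik3cg, a catalytic subunit of phosphoinositide kinase in leukocytes. Tyrobp stood at 37.9 ± 9.21 CPM in APP/PS1 and 11.5 ± 1.42 in WT. Its log2 fold change was 1.68 ± 0.21 (SE; edgeR, adjusted p = 0.0132), and that of Pik3cg was 0.76 ± 0.16 (adjusted p = 0.032). With the replicate number as a block the count was 1, and Tyrobp was not called (1.73, adjusted p = 0.119). The count was 1 without WT female 2 (Pik3cg 0.64, adjusted p = 0.143) or APP/PS1 male 2 (Pik3cg 0.70, adjusted p = 0.107), 4 without APP/PS1 male 4, and 6 with edgeR's likelihood ratio test or DESeq2.

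Of 6 transcription factors of the myeloid lineage tested, 5 were called higher and none lower, where 1.75% of all genes were called higher. The median log2 fold change of the 6 was 0.71 against 0.01 over all genes. Irf8, which microglia need to develop, had a log2 fold change of 1.201 ± 0.19 (SE; edgeR, adjusted p = 0.0148), Ikzf1 0.64 ± 0.13 (adjusted p = 0.0277) and Runx1 0.80 ± 0.17 (adjusted p = 0.0367). Spi1, which encodes PU.1 and was singled out after its value was seen, had 0.78 ± 0.18 (adjusted p = 0.0591). Irf8 passed with any 1 library left out. With the replicate number as a block the count was 0, and Irf8 was not called (1.28; edgeR, adjusted p = 0.1115). Ikzf1 (0.59), Runx1 (0.87) and Spi1 (0.91) were not called there either. Without WT female 2 the calls of Ikzf1 (0.54), Runx1 (0.72) and Spi1 (0.75) were lost and the count was 1. Without WT male 1 those of Runx1 (0.65) and Spi1 (0.70) were lost and the count was 2, and without WT female 1 or APP/PS1 female 2 that of Spi1 (0.81 and 0.81), with a count of 3. The call of Spi1 was also lost without APP/PS1 female 1 (0.77), APP/PS1 male 2 (0.77) or WT male 2 (0.85). Without the 3 libraries high in Ttr the count was 3, with Ikzf1 (0.53, adjusted p = 0.137) and Runx1 (0.69, adjusted p = 0.144) not called, and Runx1 was not called with no RUV factors (0.74, adjusted p = 0.117) or 1 (0.74, adjusted p = 0.106). Cebpa, the most abundant of the list at a mean of 24.7 CPM, did not pass.

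**Figure D4:**
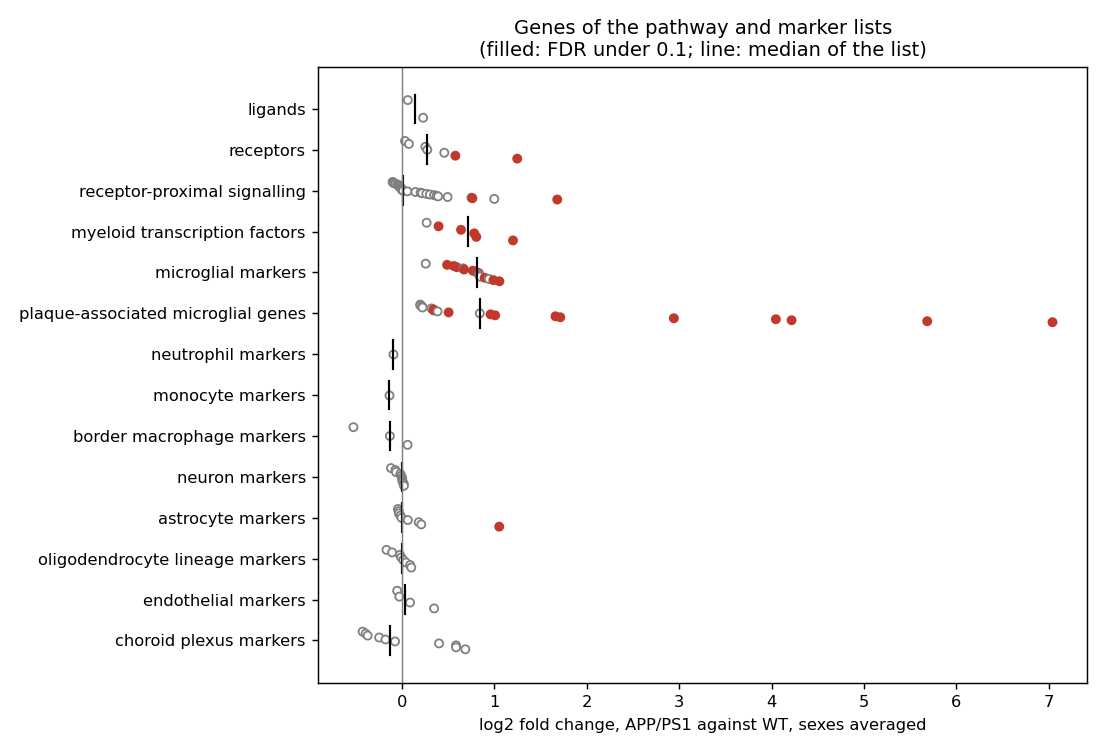
Log2 fold changes of APP/PS1 against WT with both sexes averaged (horizontal axis) for each tested gene of the pathway and marker lists (vertical axis); filled points passed an FDR under 0.1 and black lines are list medians. Filled points lie in the receptor, signalling, transcription factor, microglial and plaque-associated lists, with 1 among the astrocyte markers.

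Other cell types that carry these receptors were looked for by their markers. The neutrophil list holds 12 genes, of which 1, Mmp9, passed the filter, and 6 had at most 10 counts in any library. Mmp9 was its most abundant gene at 1.202 ± 0.226 CPM in APP/PS1 and 1.32 ± 0.228 in WT. The summed level of the 12 genes was 1.67, 1.67, 1.24 and 1.28 CPM in APP/PS1 females, 1.83 and 1.46 in WT females, 2.91, 1.42, 1.87 and 1.47 in APP/PS1 males, and 1.34 and 11.9 in WT males. WT male 2 thus stood apart from the other 11 libraries. S100a9, singled out after its values were seen, had 199 counts there and at most 38 in any other library.

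WT male 2 was also the WT library with the most Csf3r, Csf2rb and Csf2rb2, at 8.63, 2.45 and 2.28 CPM. Without it the log2 fold change of Csf3r was 1.42 with both sexes averaged, against 1.25 with it, and that of Csf2rb2 in males turned from -0.21 to 0.29. In the 8 APP/PS1 libraries the neutrophil sum was at most 2.91 CPM. The part of neutrophils in the values of Csf3r was not tested.

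**Figure D5:**
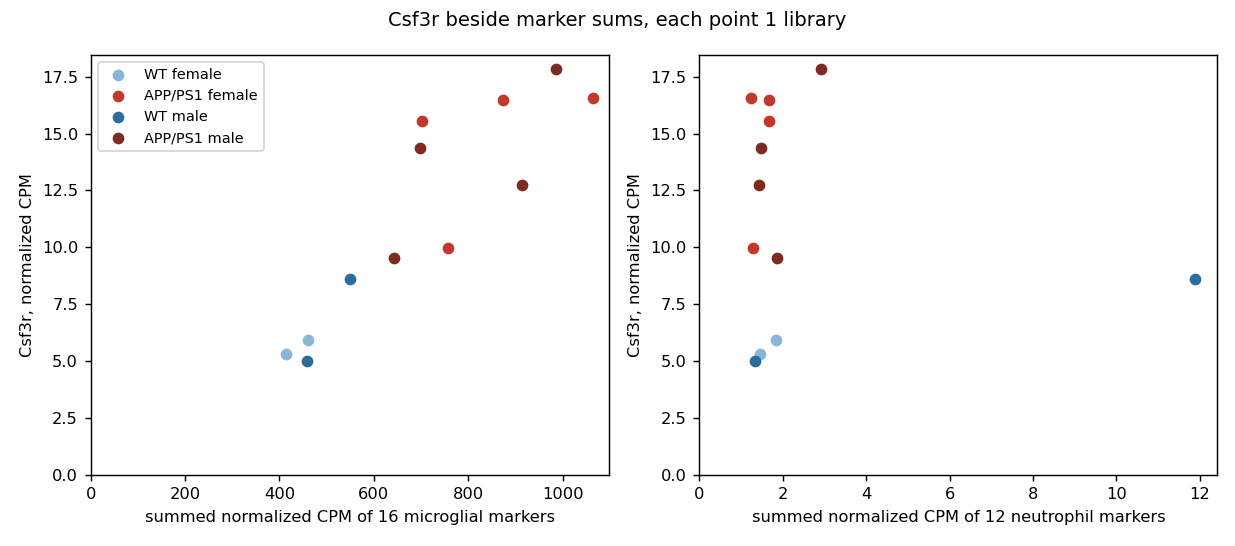
Normalized CPM of Csf3r (vertical axes) in each library against the summed normalized CPM of 16 microglial markers (left) and of 12 neutrophil markers (right), 1 point per mouse. On the left both quantities are higher in every APP/PS1 library, and on the right WT male 2 stands alone at 11.9 CPM of neutrophil markers.

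Of 6 monocyte markers, Vcan, which other cells of the brain also express, was the only one tested, at 22.3 ± 2.37 CPM in APP/PS1 and 24.4 ± 2.94 in WT. Ly6c2 and Plac8 were at 0.109 and 0.0893 CPM in APP/PS1 and 0.0232 and 0.0302 in WT, Ccr2 at 0.2005 and 0.1996 and Chil3 at 0.0394 and 0.0462, each with at most 19 counts in any library. The 6 border macrophage markers were led by Mrc1 at 3.87 ± 0.727 CPM in APP/PS1 and 3.65 ± 0.598 in WT, and of the 3 that were tested it alone was fitted as higher in APP/PS1 with the sexes averaged. The other genes of the list were named after their values were seen. Cd163, F13a1 and Lyve1 were at 1.67, 1.94 and 0.711 CPM in APP/PS1 and 2.42, 2.18 and 0.993 in WT, and Pf4 and Ms4a7 at 0.762 and 0.36 CPM in APP/PS1 and 0.564 and 0.188 in WT. No border macrophage marker was called by edgeR, where 1 had an unadjusted p under 0.05 with the sexes averaged and 2, both lower in APP/PS1, in males. The sum of the 6 ranged from 6.70 to 11.3 CPM in APP/PS1 and from 6.39 to 12 CPM in WT. None of 8 lymphocyte markers passed the filter, the most abundant being Cd4 at a mean of 0.215 CPM. Their sum ranged from 0.433 to 0.955 CPM in APP/PS1, with a median of 0.665, and from 0.297 to 0.473 CPM in WT, with a median of 0.333, and each APP/PS1 library but male 3 was above every WT library. Cd8a, named after its values were seen, was at 0.149 CPM in APP/PS1 and 0.0549 in WT, with at most 10 counts in any library. The part of these cells in the results was not tested. None of 10 neuron, 8 oligodendrocyte lineage or 4 endothelial markers was called with the sexes averaged in edgeR's test, where 1 gene of each list had an unadjusted p under 0.05, and Mbp and Flt1 led the latter lists at means of 2001 and 57.8 CPM. Of 9 astrocyte markers 1 was called, Gfap, the filament protein of reactive astrocytes. Its log2 fold change was 1.05 ± 0.14 (SE; edgeR, adjusted p = 0.0137). With the replicate number as a block Gfap was not called (1.15, adjusted p = 0.119). The most abundant astrocyte marker, Slc1a2, was at 3126 ± 198.3 CPM in APP/PS1 and 3120 ± 100 in WT. Of 10 choroid plexus markers none was called with the sexes averaged, where 3 had an unadjusted p under 0.05, and Kl was called lower in females, with a log2 fold change of -0.46 (adjusted p = 0.046). That call was lost without APP/PS1 female 2 (-0.41), APP/PS1 female 3 (-0.40), WT female 1 (-0.37), WT female 2 (-0.35), APP/PS1 male 2 (-1.12) or all 3 libraries high in Ttr (-0.44), and the value was -1.13 without APP/PS1 female 1. It was lost too with no RUV factors (-0.92, adjusted p = 0.908), with 1 (-0.36, adjusted p = 0.499) and with each sex fitted alone (-0.92, adjusted p = 0.915).

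The genes whose level over the 12 libraries was most like that of each member were found by Pearson's correlation of log2 normalized CPM, as a description without a test. For Csf1r they were Axl, Vsir and Nckap1l (r = 0.958, 0.957 and 0.948), and for Csf3r Irf8, Itgb2 and C3ar1 (r = 0.963, 0.962 and 0.962). Csf1r and Csf3r correlated with each other at r = 0.929. The genotype difference that these genes share contributes to each of these values. The closest genes of every member were picked as the highest among all genes tested over 12 libraries, which by itself favours high values. For Csf1 the closest genes were Pcbp2, Slc29a3 and Pdgfrl (r = 0.885, 0.873 and 0.872), and for Il34 Atic, Kif3a and Sqstm1 (r = 0.895, 0.874 and 0.868). The ligands correlated with each other at r = 0.266, and with Csf1r at 0.769 for Csf1 and 0.369 for Il34. The genes closest to Csf2ra were Srpk3, Dtx3 and Ssh3 (r = 0.945, 0.932 and 0.929), to Csf2rb H2-DMa, Osgep and Rps6ka1 (r = 0.869, 0.847 and 0.846), and to Csf2rb2 Cdc14a, Ralgapb and Nat8f4 (r = 0.797, 0.791 and 0.785).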

How the data were processed

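Poly-A RNA of 12 right hippocampi was sequenced as directional libraries. The deposited values are raw counts per gene without normalization, made by HTSeq from STAR alignments to GRCm38 after Trimmomatic had cleaned the reads, by the submitters' processing notes. Versions, annotation release, and strand and multi-mapping options are not given in the sources used here. Of 55573 identifiers 55480 matched GENCODE M21, which gave symbols, positions and exon lengths. The members and lists were chosen with earlier results of these data known. Genes with at least 1 CPM in at least 3 libraries were tested with edgeR 4.0.16 (R 4.3.3), by the quasi-likelihood test on upper-quartile scaled counts with 4 group means and 2 RUV factors. These factors estimate unwanted variation, by a re-implementation of RUVg, from the genes outside the 5000 that differed most between groups in a fit without factors. The fit was tested on simulated data, where it recovered most of the changes put in, but more of its calls were false than the threshold allows. Calls near the threshold, such as Csf1r with the sexes averaged and Csf3r in females, may be less secure than their adjusted p. P-values are two-sided. SE are the log2 fold change divided by the root of F. Ratios used a pseudocount of 0.1 CPM. Alternatives included the likelihood ratio test, DESeq2 1.42.0, TMM, other filters and RUV numbers, and leaving out libraries. Within groups, chi-square per degree of freedom of 12.6 to 57.2 showed no pair of libraries alike within counting error. At these depths counting error matters mainly for genes of few counts. Besides the members, the text names the other ligands and receptors, up to 6 called pathway genes and the 4 microglial and 4 plaque-associated genes of smallest p, the most abundant and called genes of the other lists, and the 3 genes most correlated with each member. Some genes that this rule takes are not reported here.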

Additional observations from a re-analysis of the deposited data

Results flagged for a closer look

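APP/PS1 female 4 was far below the other 3 APP/PS1 females for Csf2ra, at 8.87 CPM against 16.5 to 17.8, and for Csf3r, at 9.98 CPM against 15.6 to 16.6. In each case the gap to the nearest library took up more of the group's range, 0.854 and 0.845 of it, than Dixon's limit of 0.829 for 4 samples. These were 2 of 28 groups of 4 values examined, and chance flags about 1 in 20. Without this library the log2 fold change of Csf3r in females remained positive and its call was retained.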

How the results depend on the processing

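Csf3r with the sexes averaged kept its direction and call under the alternatives other than leaving out WT female 2, with log2 fold changes of 1.07 to 1.42 when 1 library was left out. Csf1r with the sexes averaged kept its direction but lost its call at FDR under 0.05 (0.58, adjusted p 0.0925) and with no filter (0.55). The call was also lost without the 3 libraries high in Ttr (0.44) and with the replicate number as a block (0.58). Adjusted p ran from 0.000836 to 0.41 among the alternatives that left out no single library. With 1 library left out the call was lost in 8 of the 12 cases. The log2 fold changes of Csf1r ran from 0.47 to 0.71 over all 12 of these cases. The cause was not tested. In females Csf3r ranged from 1.36 to 1.64 with 1 library left out, losing its call in 6 of 12 cases. It also lost its call at FDR under 0.05 (1.48), with no filter (1.47) and with 1 RUV factor (1.39). The replicate number as a block (1.64) ended it too. Csf1r in females passed with the likelihood ratio test (0.62). In males Csf3r passed with that test (1.03), with DESeq2 (1.02) and without the libraries high in Ttr (0.995).

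Members called with the sexes averaged numbered 1 at FDR under 0.05, with no filter and without the libraries high in Ttr, and 0 to 2 with 1 library left out. In females they numbered 0 at FDR under 0.05, with no filter and with 1 RUV factor, 2 with the likelihood ratio test, and 0 to 1 with 1 library left out. In males they numbered 1 with the likelihood ratio test, with DESeq2 and without the libraries high in Ttr.

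Genes called with the sexes averaged ranged from 181 to 401 with 1 library left out. They numbered 426 with DESeq2, 334 higher and 92 lower against 272 and 25. Genes called were 433 with the likelihood ratio test, 364 higher and 69 lower, and 198 with no RUV factors, 191 higher and 7 lower. In females they were 78 at FDR under 0.05, 320 with the likelihood ratio test, 311 with DESeq2, 197 with no filter and 23 to 191 with 1 library left out. In males the same settings gave 15, 135, 130, 42 and 6 to 102, with 43 without the libraries high in Ttr and 14 with each sex fitted alone. For the interaction the likelihood ratio test called 1, DESeq2 2 and no filter 6.

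Some directions turned, none of them in a comparison where the gene was called. Log2 fold changes with 1 library left out ran from -0.0057 to 0.49 for Csf1 in females, -0.037 to 0.14 for Il34 averaged, -0.19 to 0.17 for Il34 in males, -0.078 to 0.43 for the Csf1r interaction, -0.32 to 0.48 for Csf2rb in males, -0.13 to 0.31, -0.029 to 0.80 and -0.58 to 0.29 for Csf2rb2 averaged, in females and in males, and -0.036 to 0.12 for Ptprz1. Without the libraries high in Ttr the Csf1r interaction was -0.075, Csf2rb in males -0.025, and Csf2rb2 -0.16 averaged and -0.16 in females. With no filter Csf2rb in males was -0.019. The relative level of Csf1r ran from -0.29 to -0.16 with 1 library left out. Against the plaque-associated genes it was -1.02. Those genes were chosen for their rise near plaques, so that value is a description and no independent check. The cause was not tested. With the log2 CPM filter Csf2rb2 was not among the 14008 genes tested and has no value.

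The replicate numbers did not pair the samples, since libraries of the same number had correlations of their deviations from -0.627 to 0.685. The block adds terms to a fit of 12 libraries and so leaves fewer degrees of freedom for the spread. The part of this in the lost calls was not tested. With the replicate number as a block 244, 134 and 17 genes were called with the sexes averaged, in females and in males. The block also gave calls for 0 of the 6 transcription factors and 6 of the 16 microglial markers and 1 gene of receptor-proximal signalling, and ended those of Tyrobp (1.73, adjusted p 0.119), Gfap (1.15, adjusted p 0.119), Laptm5 (1.01, adjusted p 0.213) and Selplg (0.60, adjusted p 0.177). Under it 1 member was called with the sexes averaged and 0 in females, Csf1r averaged was 0.58 (adjusted p 0.41), Csf3r in females 1.64 (adjusted p 0.179), Il34 in males 0.055 and Csf2rb2 averaged -0.036.

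Each sex rests on 2 WT mice, and where 1 of them is left out the other is assumed to vary like the other groups. Csf2rb and Csf2rb2, at 41 to 124 counts per library, are limited by depth as well.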
